A study of Mus musculus with 2 samples.

Results

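The Cxcl13 Vegfd Mmp3 fibroblasts are 874 barcodes of 1 pooled mouse skin library, out of 8367 barcodes in all. They were chosen by measured expression. A barcode needed 200 genes, no more than 20% of its unique molecular identifiers (UMIs, counts of single captured RNA molecules) from mitochondria, at least 10 UMIs summed over Col1a1, Col1a2, Col3a1 and Dcn, 0 UMIs of Ptprc, and at most 2 UMIs of Krt5 and Krt14 together. The filters on genes and mitochondria kept 8127 barcodes, and 3523 of these met the conditions on fibroblast, leukocyte and keratin genes, called gated fibroblasts here. For 6 sets of 4 genes each, the counts per 10000 UMIs were summed, log transformed and expressed as z-scores over the gated fibroblasts. A barcode was a member when the set of Cxcl13, Vegfd, Adm and Mmp3 had the highest of the 6 z-scores and that score was above 0. Members made up 24.8% (23.4 to 26.3) of gated fibroblasts and 10.8% (10.1 to 11.4) of filtered barcodes.

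The other gated fibroblasts numbered 2649. By the same rule 302 fell to the set led by Crabp1, 436 to that of Cilp, 442 to that of Cyp2f2, 727 to that of Rasgef1c and 645 to that of Nova1, and 97 fell to none. Each set is called a group by its first gene.

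The skin came from C57BL/6 mice of 8 weeks. Control mice and mice given the anti-Ly6G antibody 1A8 for 2 days at steady state to deplete neutrophils were digested with Liberase and DNAseII, tagged with Biolegend hashtag antibodies and pooled. The matrix held 0 hashtag rows, so no barcode was assigned to control or depleted skin and each value describes the pool of both. The separate hashtag reads were left out. The number of animals is not given in the sources used here. There was 1 library and no replicate, so no test was made. Intervals in parentheses are 95% intervals, exact Poisson for UMI rates, exact conditional for ratios and Clopper-Pearson for shares, and they cover counting error only.

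Dermal fibroblasts build and remodel the collagen matrix and also signal to vessels and leukocytes. CXCL13 is a chemokine that draws B cells and follicular helper T cells through the receptor CXCR5, and is best known from stromal cells of lymphoid follicles. VEGF-D is a growth factor of lymphatic vessels that acts through VEGFR-3, encoded by Flt4. Adrenomedullin, the product of Adm, is a vasodilator peptide that acts through the receptor CALCRL with a RAMP partner, and MMP3, or stromelysin 1, is a secreted protease that cleaves proteoglycans and other matrix proteins and activates other metalloproteinases.

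The 4 genes lie on different chromosomes of mm10 (GRCm38), all on the plus strand in the GENCODE annotation. Cxcl13 spans chromosome 5 from 95956951 to 95961068 and Vegfd chromosome X from 164373378 to 164402650. Adm spans chromosome 7 from 110627661 to 110629820 and Mmp3 chromosome 9 from 7445822 to 7455975. All 4 had a promoter window in RefSeq (GRCm38.p6), each 300 bases long from 250 before to 50 after the RefSeq start. The windows are printed because the 4 genes were counted together to choose the members. Capitals mark matches, on either strand, to an AP-1 motif (TGANTCA) or to a TATA box (TATAAA). Neither motif overlaps the other in these windows.
Cxcl13: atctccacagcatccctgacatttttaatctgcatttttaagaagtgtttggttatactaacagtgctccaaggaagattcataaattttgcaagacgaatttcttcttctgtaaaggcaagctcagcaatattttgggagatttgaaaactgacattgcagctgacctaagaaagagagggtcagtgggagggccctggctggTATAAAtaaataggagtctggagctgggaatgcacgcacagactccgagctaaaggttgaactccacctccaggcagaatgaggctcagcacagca
Vegfd: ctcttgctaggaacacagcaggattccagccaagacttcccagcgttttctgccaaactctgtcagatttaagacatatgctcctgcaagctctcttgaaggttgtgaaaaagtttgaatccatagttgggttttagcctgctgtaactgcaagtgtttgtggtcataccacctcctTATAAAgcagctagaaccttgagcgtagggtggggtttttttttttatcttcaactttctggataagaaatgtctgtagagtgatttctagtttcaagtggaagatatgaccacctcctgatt
Adm: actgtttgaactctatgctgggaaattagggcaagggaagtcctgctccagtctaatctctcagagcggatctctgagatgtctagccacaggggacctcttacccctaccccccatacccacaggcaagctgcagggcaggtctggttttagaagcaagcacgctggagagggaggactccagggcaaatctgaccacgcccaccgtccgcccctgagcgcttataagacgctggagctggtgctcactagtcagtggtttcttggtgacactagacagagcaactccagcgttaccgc
Mmp3: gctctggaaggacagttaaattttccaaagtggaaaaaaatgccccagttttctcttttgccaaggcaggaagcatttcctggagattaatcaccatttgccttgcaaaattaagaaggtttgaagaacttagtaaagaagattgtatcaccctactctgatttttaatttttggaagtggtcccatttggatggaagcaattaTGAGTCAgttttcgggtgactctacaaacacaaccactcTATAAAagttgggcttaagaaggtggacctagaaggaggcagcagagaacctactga
The windows are, in that order, chr5:95956689-95956988, chrX:164373272-164373571, chr7:110627407-110627706 and chr9:7445572-7445871. The AP-1 motif was found in the Mmp3 window alone of the 4, with its first base 46 bases before the start, and 7.81% of all 32817 RefSeq windows hold it. A TATA box was found in the Cxcl13 window 46 bases, in the Vegfd window 73 bases and in the Mmp3 window 7 bases before the start, against 13.6% of all windows. The interferon response element, searched as GAAA, any 2 bases and GAAA, was in 3.43% of all windows and in none of the 4. The hypoxia response element core, ACGTG, was in 19.6% of all windows and likewise in none of the 4. These are matches of letters and not sites of binding.

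The levels of the 4 genes chose the members and are given as a description. Cxcl13 reached 3186 CPM in members, where CPM is the UMIs of a gene per 1000000 UMIs, both summed over the barcodes of a group. It stood at 1332 CPM in the Crabp1 group, 499 in the Cilp group, 454 in the Cyp2f2 group, 760 in the Rasgef1c group and 1053 in the Nova1 group. So Cxcl13 RNA was present in every fibroblast group, and members differed from the others in its amount. A UMI of Cxcl13 was found in 95.8% of members and 62.8% of the other gated fibroblasts. When each barcode was thinned to 2000 UMIs, which 862 members and 2597 others reached, the shares were 88.6% and 42.9%.

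Mmp3 was the gene with the next highest level, at 893 CPM in members, 427 in the Crabp1 group, 201 in the Cilp group, 327 in the Cyp2f2 group, 241 in the Rasgef1c group and 338 in the Nova1 group. Vegfd reached 392 CPM in members, and its highest level in another group was 252 CPM, in the Nova1 group. Adm reached 335 CPM in members, and its highest level in another group was 158 CPM, in the Cilp group. Thinned shares with a UMI were 59.4% and 27.6% for Mmp3, 49.9% and 23.0% for Vegfd, and 33.3% and 15.4% for Adm, in members and in other gated fibroblasts.

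**Figure D1:**
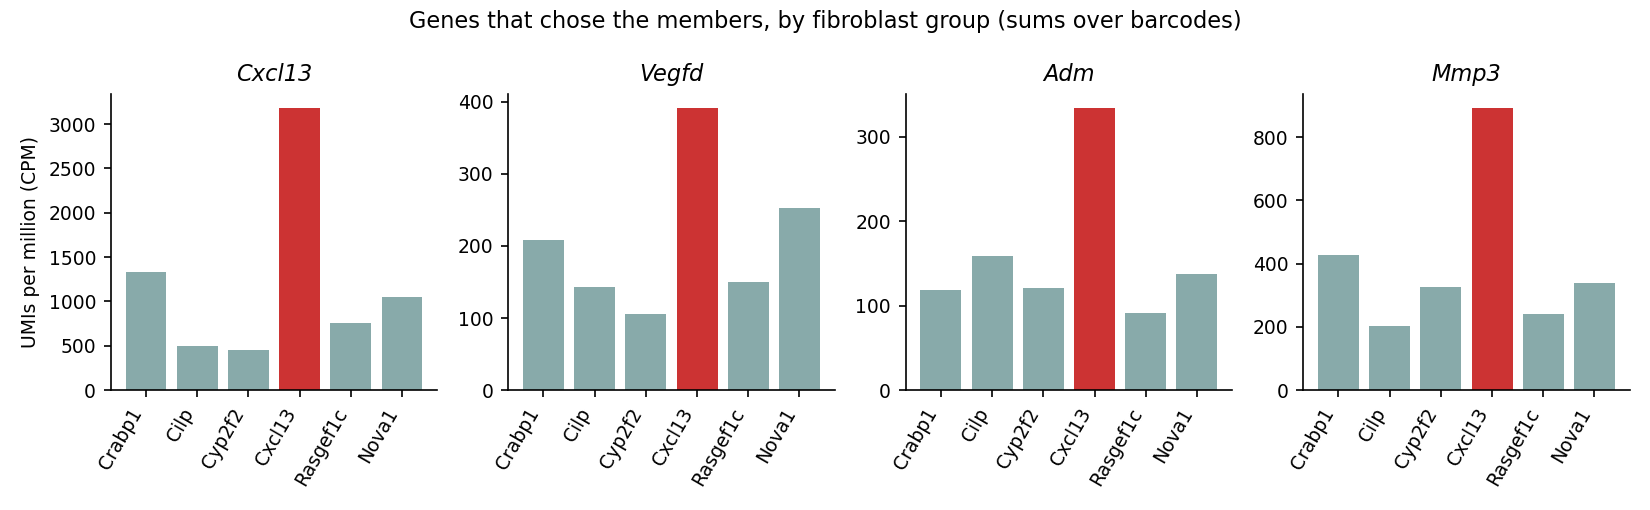
CPM of the 4 genes that chose the members, one panel per gene with its own axis from 0, summed over the barcodes of each fibroblast group named on the x axis. Members are the red bar (Cxcl13 group), and each of the other groups also holds the 4 RNAs, for example Cxcl13 at 1332 CPM in the Crabp1 group.

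The 4 RNAs were scarce in 2 kinds of barcode outside the gate, both with fewer than 10 UMIs summed over Col1a1, Col1a2, Col3a1 and Dcn. The first were 1110 barcodes with 10 or more keratin UMIs (Krt5 and Krt14). The second were 2157 barcodes with Ptprc, the pan-leukocyte gene, and at most 2 keratin UMIs. Barcodes outside the gate in neither kind are not covered. Their median depths, keratin then Ptprc, were 10912 and 7663 UMIs, against 12264 in members. After the same thinning, which 1108 keratin and 2016 Ptprc barcodes reached, Cxcl13 had a UMI in 0.632% and 1.54% of them. Mmp3 had a UMI in 0.993% and 0.744% of these barcodes, Vegfd in 4.60% and 0.446%, and Adm in 3.16% and 0.248%. Without thinning the shares were 2.61% and 4.64% for Cxcl13, 4.32% and 3.01% for Mmp3, 20.1% and 1.44% for Vegfd, and 9.19% and 1.72% for Adm, against 95.8%, 86.0%, 87.1% and 66.5% in members. The shares in members and in the other gated fibroblasts thus lay above those in both kinds of barcode outside the gate. Whether the UMIs there are free RNA was not tested.

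Members varied among themselves in the 4 genes. The median member held 27 UMIs of Cxcl13, 3.5 of Vegfd, 1 of Adm and 6 of Mmp3, and the highest member 271, 39, 42 and 117. The 10% of members with most UMIs of a gene carried 34.3% of the Cxcl13, 31.1% of the Vegfd, 41.0% of the Mmp3 and 48.0% of the Adm UMIs. All 4 genes had a UMI in 461 members (52.7%), 3 genes in 287, 2 genes in 100 and 1 gene in 26. The most frequent combination without one gene lacked Adm, with 183 members. Of all 934 gated fibroblasts with a UMI of each of the 4 genes, 49.4% were members, and the other barcodes of this kind had a higher z-score for another set.

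Cxcl13 was the gene with most UMIs of the 4 in 649 members (74.3%), Mmp3 in 146 (16.7%), Adm in 45 (5.15%) and Vegfd in 34 (3.89%). In the Mmp3-led members, Mmp3 reached 2302 CPM and Cxcl13 981, and in the Cxcl13-led members Mmp3 reached 667 CPM and Cxcl13 3901. The Mmp3-led members also had more Mgp, a matrix protein that inhibits calcification, at 49.5 against 3.67 CPM in the other members, with 30.4% of all its member UMIs in 1 barcode. They had more F3, the tissue factor that starts coagulation, at 36.1 against 7.77 CPM, and more Penk, the enkephalin precursor, at 47.7 against 11.5 CPM. Gdf10, a TGF-beta family ligand, followed with 26.9 against 6.91 CPM. The Adm-led members held more Cxcl9, at 79.2 against 12.5 CPM, from 45 UMIs in 13.3% of these 45 barcodes. Over all 874 members, the highest barcode held 31 UMIs of Cxcl9. The Adm-led members also held more RNA of skeletal muscle genes, such as Acta1 at 297 against 52.0 CPM, found in 11.1% of them. The skeletal muscle list as a whole was at 228 CPM in members and 298 in others, with 80.3% of its member UMIs in 10 barcodes, and its part in the Adm-led values was not tested. Across the 874 members the Spearman correlation of counts per 10000 was 0.346 for Vegfd and Adm, and lay between −0.163 and 0.065 for the other 5 pairs. Across all 3523 gated fibroblasts the 6 pairs lay between 0.212 and 0.447. All pairs share 1 library, and the rule itself, by summing the 4 genes, shapes the values among members.

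The distance to the next set was often small. The median member stood 0.589 z above its next set, 176 members stood less than 0.25 above it and 362 less than 0.5. The next set was that of Nova1 for 253 members, of Rasgef1c for 192, of Cyp2f2 for 181, of Crabp1 for 177 and of Cilp for 71. The 20 members nearest the threshold had Cxcl13 at 2443, Vegfd at 387, Adm at 331 and Mmp3 at 753 CPM. The 20 nearest barcodes outside it had 1854, 255, 197 and 501 CPM. A further 25 barcodes had this set highest but not above 0. The members are therefore a range of a continuous score.

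Each gene of the set was then measured in members chosen by the other 3 alone. Without Cxcl13 the rule gave 830 members, 637 of them shared with the 874, and Cxcl13 stood at 2312 against 1158 CPM in the remaining gated fibroblasts, 2.00-fold (1.96 to 2.03). Without Adm there were 873 members, and Adm stood at 293 against 135 CPM, 2.18-fold (2.08 to 2.28). Vegfd stood at 374 against 184 CPM in 878 members chosen without it, 2.03-fold (1.95 to 2.11). Mmp3 stood at 716 against 357 CPM in 851 members chosen without it, 2.01-fold (1.95 to 2.07). Each of the 4 RNAs was thus about as much higher as the next when it took no part in the choice.

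Of 9995 genes with a UMI in at least 5% of gated fibroblasts, Plac8 followed Cxcl13, Vegfd and Mmp3 most closely, with Spearman correlations of 0.570, 0.548 and 0.423 over 3523 barcodes. Plac8 is a small cysteine-rich protein of many leukocytes and epithelia. It stood at 3444 CPM in members and between 1169 CPM in the Cyp2f2 group and 2396 CPM in the Nova1 group. Ifitm3, an interferon-induced membrane protein that blocks virus entry, was among the 5 closest genes for each of the 4, with 0.420 for Cxcl13, 0.488 for Vegfd, 0.305 for Adm and 0.387 for Mmp3. Adm was closest to Vegfd at 0.379, and then to Svep1, a cell adhesion protein of the matrix, at 0.321 and to C4b, complement component 4, at 0.307. The other close genes were Inmt and Chrdl1 for Cxcl13, Bst2 and Ifi27l2a for Vegfd, Inmt for Adm and Ly6e for Mmp3. The points share depth, and the 4 genes correlated with the total UMIs of the barcode at 0.208 to 0.308.

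Members were checked against markers and quality. All 10 fibroblast markers outside the gate were within 1.5-fold of the other gated fibroblasts, with Lum at 1223 against 1103 CPM and Pdgfra at 390 against 351 CPM. The median member had 12264 UMIs and 3293 genes, against 10933 UMIs and 3295 genes in the others, and a mitochondrial share of 0.778% against 1.10%. Malat1, a long noncoding RNA kept in the nucleus, differed most among quality measures, at 2627 CPM in members against 9088 CPM in the others and between 7031 and 11492 CPM in the 5 other groups. Neat1, also a nuclear RNA, stood at 95.5 against 244 CPM. Of members, 81% lay at or below the Malat1 median of gated fibroblasts, against 39.8% of the others. Results are therefore also given on each side of that median where they move.

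Markers of other cell types were found at low levels, some over many members and some in few. Keratinocyte markers had a UMI in 60.9% of members and macrophage markers in 42.0%, against 56.2% and 42.5% of others. Schwann cell markers summed to 216 CPM in members and 208 in others, and 10 members carried 4.87% of their UMIs. Keratinocyte markers summed to 136 CPM in members and 188 in others, macrophage markers to 91.2 and 78.8, and blood endothelial markers to 39.4 and 68.4. Neutrophil markers summed to 1.10 and 1.95 CPM, with 0 UMIs of Ly6g, Csf3r, Cxcr2, Ngp and Retnlg in members. Mast cell markers were the exception, at 39.7 against 7.02 CPM, with 3 of the 4 measured genes of 6 past 1.5-fold. Cpa3, a mast cell protease, had 98 UMIs in members, 68.4% of them in 1 barcode, and 10 members carried 94.2% of all mast cell marker UMIs. Fabp4, a fatty acid carrier of adipocytes, had 84.7% of its 150 UMIs in 1 member, and the adipocyte genes Adipoq, Plin1, Cidec and Lep had 0. Of members, 27 held 3 or more macrophage markers. Scrublet called 11 members doublets.

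The first comparison set members against all other gated fibroblasts, for 11396 genes with at least 100 UMIs outside the rule and gate genes. In members 190 genes were at least 1.5-fold higher, which is 1.67% of those measured, and 2507 were at least 1.5-fold lower, which is 22%. At 2-fold the counts were 25 higher (0.219%) and 1055 lower (9.26%). The median gene had a log2 ratio of −0.13. The rule took barcodes that were high in the 5 other sets out of the members, so genes that go with those sets are lower in members by construction. Within barcodes at or below the Malat1 median 120 of 9430 genes were higher (1.27%) and 846 lower (8.97%). Above it 222 of 10486 were higher (2.12%) and 1097 lower (10.5%), so the share of lower genes was smaller on each side than over all barcodes.

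Among the lists of pathways and functions, interferon-induced genes had the highest median in members. Of 19 measured genes, 9 were past 1.5-fold higher, against 1.67% of all genes measured, and 0 were lower, with a median log2 ratio of 0.58. Summed, the list stood at 7469 CPM in members and 4728 CPM in the others. The middle member held 66.2 list UMIs per 10000, with 19.9 at the 10th and 132 at the 90th percentile. The middle barcode of the others held 33.7, with 5.90 and 89.8 at the same percentiles. The ranges overlap widely, and 10 members carried 4.42% of the list's UMIs, so no few barcodes made the sum. Type I and type II interferons induce these antiviral and chemokine genes in most cells.

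Ifit3, which binds to IFIT1 in the sensing of foreign RNA, was at 204 CPM (195 to 212) in members, against 94.4 in the Crabp1 group, 85.2 in the Cilp group, 64.5 in the Cyp2f2 group, 70.8 in the Rasgef1c group and 153 in the Nova1 group. Over all others it was 2.05-fold higher (1.94 to 2.17), with a UMI in 46.8% of members and 29.2% of others. Isg15, a ubiquitin-like modifier, was at 533 CPM in members and between 185 CPM in the Cyp2f2 group and 437 CPM in the Nova1 group, and 1.69-fold higher (1.64 to 1.75) over all others. Both genes were thus higher in members than in each single group, and closest to members in the Nova1 group. Bst2, or tetherin, which holds budding virus at the membrane, was at 1268 against 718 CPM, 1.77-fold (1.73 to 1.80). Irf7, the transcription factor that amplifies the interferon response, was at 196 against 105 CPM, 1.87-fold (1.77 to 1.97).

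Ifi44, another interferon-induced gene, had the largest ratio of the list at 2.37-fold (2.00 to 2.81), at 23.5 against 9.91 CPM. Ifi27l2a, the most abundant gene of the list, stood at 3753 against 2394 CPM, 1.57-fold (1.55 to 1.59). Gbp3, a guanylate binding protein, was 1.80-fold higher (1.61 to 2.01), and Cxcl10 1.69-fold higher (1.63 to 1.74). Cxcl9, a chemokine of type II interferon, was at 15.96 against 7.09 CPM, with 17.8% of its member UMIs in 1 barcode and 1.85-fold higher without it. The other 10 genes stayed within 1.5-fold, among them Irf1, the transcription factor with the lowest ratio of the list, at 144 against 172 CPM. Ifit1 and Ifit3 and the Gbp genes have near-identical relatives, so their split of counts is uncertain.

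Set against single groups, the number of interferon-induced genes past 1.5-fold higher in members was 14 of 19 over the Crabp1 group, 16 over the Cilp group, 14 over the Cyp2f2 group, 10 over the Rasgef1c group and 3 over the Nova1 group. The background shares for these comparisons were 2.79%, 3.81%, 6.35%, 6.22% and 2.5%. The 3 over the Nova1 group were Cxcl9, Cxcl10 and Irf7, at 2.47, 2.09 and 1.52-fold. The summed list was at 5800 CPM in the Nova1 group, 4731 in the Rasgef1c group, 4686 in the Crabp1 group, 3856 in the Cilp group and 3024 in the Cyp2f2 group. The Nova1 group was thus nearest to members, and the Cyp2f2 group farthest.

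**Figure D2:**
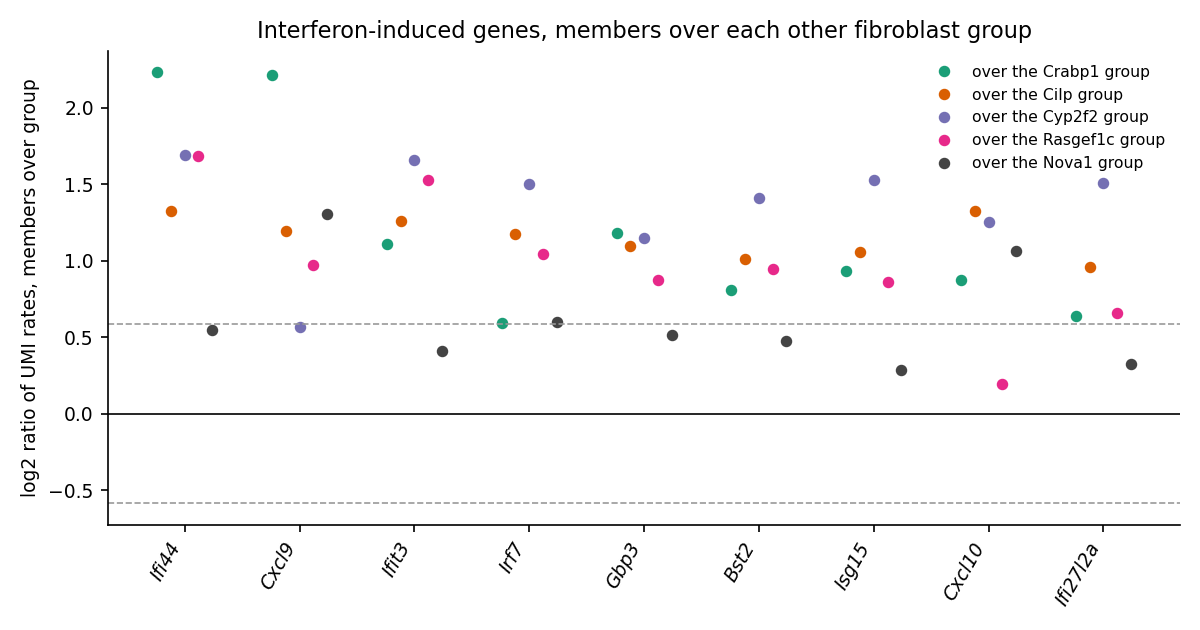
log2 ratio of UMI rates of the 9 interferon-induced genes past 1.5-fold over all others, members over each of the 5 other fibroblast groups (colours), ordered by the ratio over all others. Dashed lines mark 1.5-fold in either direction. Over the Nova1 group the 3 genes past the upper line are Cxcl9, Cxcl10 and Irf7.

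The interferon list also moved with Malat1. Gated fibroblasts were divided into 4 bins of equal size by the Malat1 share of their UMIs. In the lowest bin the list stood at 8146 CPM (8066 to 8227) in 446 members and 5646 CPM (5567 to 5726) in 435 others. In the next bins it was 7191 against 4822 CPM and 6658 against 4810 CPM. In the highest bin it was 6429 CPM (6244 to 6618) in 42 members and 4325 CPM (4287 to 4364) in 839 others. Members were therefore higher in every bin, and both groups were lower where Malat1 was higher. In the Nova1 group the list stood at 6778, 6337, 5625 and 5735 CPM over the same bins, and in the Crabp1 group at 6990, 6240, 4437 and 3063 CPM. Members were above both in each bin. In barcodes at or below the Malat1 median 9 interferon-induced genes were past 1.5-fold higher, beside 1.27% of all genes measured, and above it 8, beside 2.12%. Without the barcodes that held RNA of other cell types, 775 members remained and 11 interferon-induced genes were past 1.5-fold higher, beside 1.62% of all genes measured.

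**Figure D3:**
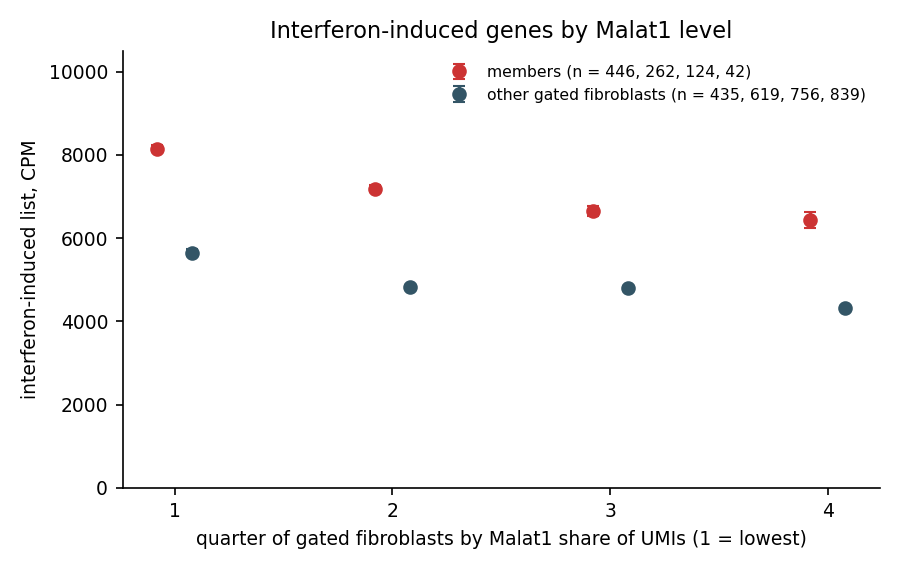
CPM of the summed interferon-induced list (y axis from 0) in 4 equal bins of gated fibroblasts by Malat1 share of UMIs, for members (red) and other gated fibroblasts (blue), with 95% exact Poisson intervals. Members lie above the others in each bin, from 8146 against 5646 CPM in the lowest to 6429 against 4325 CPM in the highest. Within each bin the median Malat1 is lower in members than in the others.

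Promoter windows were searched for the interferon response element, on either strand, to which interferon regulatory factors bind. Of the 16 interferon-induced genes with a window, 10 held it, against 3.98% of 26994 gene symbols. Of the 9 genes past 1.5-fold, 8 had a window and 5 of these held it: Ifit3, Isg15, Gbp3, Cxcl10 and Bst2. Ifit1, Rsad2, Stat2, Oas1a and Gbp2 also held it and stayed within 1.5-fold, so it was not particular to the genes past the fold. The 40 bases around each match are printed on the strand of the gene, with the matches in them in capitals. Ifit3 has a further match 122 bases before the start, outside the printed bases. On the opposite strand the element reads TTTC, 2 bases and TTTC.
Ifit3: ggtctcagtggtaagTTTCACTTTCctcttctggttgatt
Isg15: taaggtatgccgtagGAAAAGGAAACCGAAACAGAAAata
Gbp3: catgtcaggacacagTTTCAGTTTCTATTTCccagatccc
Cxcl10: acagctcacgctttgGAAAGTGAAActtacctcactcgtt
Bst2: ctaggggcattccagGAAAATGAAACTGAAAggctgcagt
They lie on GRCm38.p6 at chr19:34583358-34583397 (plus), chr4:156200872-156200911 (minus), chr3:142559984-142560023 (plus), chr5:92349078-92349117 (minus) and chr8:71537578-71537617 (minus). The printed matches begin 156 bases before the start for Ifit3, 78 for Isg15, 45 for Gbp3, 213 for Cxcl10 and 130 for Bst2. The windows of Irf7, Ifi44 and Cxcl9 had no match, which says only that these letters are not in those 300 bases.

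Among chemokines other than Cxcl13, 4 of 15 measured were past 1.5-fold higher in members and 1 was lower, beside 1.67% and 22% of all genes measured. Over single groups 9 of 14 were higher for the Crabp1 group, 8 for the Cilp group, 3 for the Cyp2f2 group, 8 for the Rasgef1c group and 9 for the Nova1 group, and 0, 1, 3, 4 and 0 were lower. Of all genes measured in these comparisons, 2.79%, 3.81%, 6.35%, 6.22% and 2.5% were higher. The shares lower were 20.6%, 14%, 17.9%, 19.3% and 22.2%. Summed, the list was at 4478 CPM in members, 6350 in the Rasgef1c group and 2362 in the Nova1 group. Ccl8, a monocyte chemoattractant, was at 92.3 against 51.9 CPM, 1.78-fold (1.64 to 1.92). Ccl11, or eotaxin, which draws eosinophils, was at 549 CPM in members and between 284 and 396 CPM in the other groups, 1.57-fold higher (1.52 to 1.62) over all others. Cxcl9 and Cxcl10, also on the interferon list, were the other 2. The lower gene was Ackr4, a scavenger receptor of CCL19 and CCL21, at 10 UMIs or 0.917 against 4.31 CPM. The neutrophil chemoattractants Cxcl1 and Cxcl2 stood at 1003 against 947 CPM and 126 against 152 CPM, with the highest levels in the Rasgef1c group, at 1830 and 314 CPM. Ccl2 was at 802 CPM in members and 1607 CPM in the Rasgef1c group. In barcodes at or below the Malat1 median, 2 chemokines were past 1.5-fold higher, beside 1.27% of all genes measured, and above it 3, beside 2.12%. The number of chemokines measured on each side is not given here, so these counts are not shares. The median log2 ratio of the chemokine list was 0.08 over all barcodes and −0.02 at or below the Malat1 median.

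Complement genes were a further list with a median above 0, at 0.23, with 3 of 14 measured higher and 3 lower, beside 1.67% and 22% of all genes measured. C4b, complement component 4, was at 727 CPM in members and between 409 and 533 CPM in the other groups, 1.62-fold higher (1.57 to 1.66) over all others. C2, its partner in the classical pathway convertase, was at 133 against 82.7 CPM, 1.60-fold (1.5 to 1.71). The third was C6, of the membrane attack complex, with 75 UMIs in members or 6.88 against 3.74 CPM. C3, the central component, was at 2602 against 2243 CPM, and the inhibitor Serping1 at 2060 against 1711 CPM, both within 1.5-fold. The lower genes were C7 at 3.03 against 5.80 CPM, and the membrane inhibitors Cd46 at 2.93 against 8.18 CPM and Cd55 at 367 against 560 CPM. In barcodes at or below the Malat1 median, 0 complement genes were past 1.5-fold higher, beside 1.27% of all genes measured, and above it 2, beside 2.12%. The number of complement genes measured on each side is not given here, so these counts are not shares.

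Stromal cells of lymphoid follicles share further genes besides Cxcl13. Of 10 measured genes of a lymphoid stroma list, 0 were past 1.5-fold higher and 1 was lower, beside 1.67% and 22% of all genes measured. The median log2 ratio of the list was 0.07. Over single groups 3 of 10 were higher for each of the Crabp1, Rasgef1c and Nova1 groups, and 1 for each of the Cilp and Cyp2f2 groups. The shares of all genes higher were 2.79%, 6.22%, 2.5%, 3.81% and 6.35%, in that order. The list summed to 1056 CPM in members, between 767 CPM in the Nova1 group and 1627 CPM in the Cyp2f2 group. Ccl19, a T zone chemokine, was at 20.2 against 24.7 CPM. Tnfsf13b, the B cell survival factor BAFF, was at 24.6 against 19.2 CPM. Vcam1 was at 75.4 against 64.2 CPM, and Il6 at 228 against 180 CPM. The lower gene was Il33, an alarmin, at 46.0 against 84.8 CPM. Ccl21a, Madcam1, Tnfsf11 and Cr2, which mark lymphoid tissue stroma, had 0 UMIs in members, which allows up to 0.275 CPM.

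Vascular growth factors other than Vegfd were mostly not higher. Of 17 measured, 1 was past 1.5-fold higher and 7 were lower, beside 1.67% and 22% of all genes measured, with a median log2 ratio of −0.44 against −0.13 for all genes. Angptl4, a secreted inhibitor of lipoprotein lipase, was the higher one, at 80.1 against 48.8 CPM, 1.64-fold (1.51 to 1.79). Vegfc, the other ligand of VEGFR-3, was at 6.60 CPM in members, 34.3 CPM in the Cyp2f2 group and 8.56 CPM in the Rasgef1c group, and 2.60-fold lower (2.03 to 3.37) than in all others. Vegfa was at 68.6 against 72.2 CPM and Vegfb at 26.6 against 25.6 CPM. So of the 2 lymphatic ligands, Vegfd chose the members while Vegfc was lower in them. Angptl1, an angiopoietin-like protein, was 3.84-fold lower (3.23 to 4.60), at 12.8 against 49.3 CPM, and Sema3e, a semaphorin that repels vessel sprouts, 2.49-fold lower (2.21 to 2.81), at 28.7 against 71.5 CPM.

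Of the receptors of the secreted ligands, the main ones of CXCL13 and VEGF-D were scarce in members, and those of adrenomedullin were not. Cxcr5, the CXCL13 receptor, had 3 UMIs in members, a ratio to the others of 0.593 (0.109 to 2.12). Flt4, the VEGF-D receptor, had 2 UMIs, a ratio of 0.692 (0.0716 to 3.47). Of 5 measured receptor genes, 0 were past 1.5-fold higher and 3 were lower, beside 1.67% and 22% of all genes measured. Their median log2 ratio was −0.69. With barcodes thinned to 3000 UMIs, where 8363 genes in all were measured against 11396, the median over the list genes still measured was 0.081. Ramp2, the partner that makes CALCRL an adrenomedullin receptor, was the most abundant, at 348 against 256 CPM, 1.36-fold (1.31 to 1.42). Calcrl itself was at 74.3 against 120 CPM and lower, as were Ramp1 at 1.28 against 7.89 CPM and Nrp2, a co-receptor of VEGF-C and VEGF-D, at 2.84 against 15.2 CPM.

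Matrix genes were mostly at like levels in members and others. Of 10 measured metalloproteinases and their inhibitors, TIMPs, 0 were past 1.5-fold higher and 1 was lower, beside 1.67% and 22% of all genes measured. Mmp2, a gelatinase, was at 912 against 784 CPM, Mmp14, its membrane activator, at 573 against 533 CPM, and Timp2, an inhibitor, at 2826 against 2685 CPM. Mmp16 was the lower one, at 1.19 against 11.9 CPM. Mmp10, which lies in the same gene cluster as Mmp3 on chromosome 9, and Mmp13 and Mmp8 had 0 UMIs in members, which allows up to 0.275 CPM.

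The counts of lower genes in the other matrix lists stand beside 22% of all genes measured. Of 13 measured ADAMTS proteases 0 were higher and 6 lower, and Adamts5, an aggrecanase, was the most abundant at 730 against 655 CPM. Fibrillar collagen genes outside the gate held 0 higher and 1 lower of 4, with Col5a1 at 408 against 426 CPM. Of 13 other collagens 3 were lower, among them Col12a1 at 13.5 against 38.7 CPM. Elastic fibre genes held 3 lower of 18, and Mfap4, a microfibril protein, was the farthest of them, at 1.74 CPM in members against 297 CPM in the Cilp group, 267 CPM in the Cyp2f2 group and 4.65 CPM in the Rasgef1c group. Among basement membrane genes 2 of 13 were lower, Lama2 at 370 against 634 CPM and Lamc3 with 4 UMIs in members. The small leucine-rich proteoglycans held 3 lower of 8, with Aspn at 115 against 235 CPM and Fmod at 0 UMIs in members, which allows up to 0.275 CPM, against 4.97 CPM. Hyaluronan genes held 3 lower of 8, and Cd44, the hyaluronan receptor, was at 58.6 against 151 CPM.

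In the papillary dermis list, for the upper layer, 9 of 11 measured genes were past 1.5-fold lower, against 22% of all genes measured, with a median log2 ratio of −0.87. Tgfbi was at 42.9 CPM in members, 698 CPM in the Cyp2f2 group and 342 CPM in the Cilp group, while the Rasgef1c and Nova1 groups had 26.3 and 30.6 CPM. Trps1, a transcription factor of hair follicle dermis, was at 2.38 CPM in members and 475 CPM in the Crabp1 group. Lef1, the transcription factor of Wnt signalling, had 1 UMI in members and was 86.7-fold lower (15.4 to 3439). Over the Crabp1, Cilp and Cyp2f2 groups 6 of 9, 5 of 7 and 7 of 8 measured papillary genes were lower, beside 20.6%, 14% and 17.9% of all genes measured. Over the Nova1 group alone, 0 of 6 measured papillary genes were past 1.5-fold in either direction, and over the Rasgef1c group 2 of 6 were higher and 1 lower, beside 22.2% and 19.3% of all genes lower. In barcodes at or below the Malat1 median 3 of 6 measured genes were lower, beside 8.97% of all genes measured there.

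In the adventitial list, for fibroblasts around vessels and in the fascia, 1 of 14 measured genes was higher and 5 were lower, beside 1.67% and 22% of all genes measured. The list summed to 12773 CPM in members and 11482 CPM in others. Ly6a, the stem cell antigen Sca-1, was at 4563 CPM in members and between 2749 and 3241 CPM in the other groups, 1.53-fold higher (1.51 to 1.54) over all others. Pi16 was at 1508 against 1832 CPM, Dpp4 at 542 against 621 CPM and Cd34 at 1084 against 1097 CPM, all within 1.5-fold. Limch1, an actin regulator, was 3.49-fold lower (3.15 to 3.88), at 37.0 against 129 CPM. Of 10 myofibroblast genes 1 was higher and 5 lower, beside 1.67% and 22% of all genes measured, with a median log2 ratio of −1.18. With barcodes thinned to 3000 UMIs, where 8363 genes in all were measured against 11396, the median over the list genes still measured was −0.20. Acta2, smooth muscle actin, had 6 UMIs in members, and Myl9, a myosin light chain, was the higher one at 124 against 80.4 CPM. Of 17 adipogenic genes, 1 was higher and 3 were lower, beside the same shares. The higher one was Fabp4, which without its top barcode stood at 0.637 of the level of others. Lpl, lipoprotein lipase, was at 739 against 496 CPM, just within 1.5-fold.

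Wnt genes held 0 higher and 12 lower of 22 measured, against 22% of all genes measured, with a median log2 ratio of −0.68. Lgr5, a receptor of R-spondins, had 4 UMIs in members or 0.367 against 13.6 CPM, and 72.0 CPM in the Cyp2f2 group. Wif1, a secreted Wnt inhibitor, had 3 UMIs in members, 16.3-fold lower (5.45 to 79.8), and stood at 34.7 CPM in the Crabp1 group. Sfrp4, another secreted Wnt antagonist, was at 351 against 269 CPM, within 1.5-fold. TGF-beta and BMP genes held 0 higher and 11 lower of 23, beside the same 22% of all genes, with a median of −0.57 against −0.13 over all genes. Bmp4 was at 3.67 CPM in members against 64.7 CPM in the Crabp1 group, and Smad3, a TGF-beta signal transducer, at 24.5 against 51.4 CPM. Fst, or follistatin, an activin inhibitor, was at 182 against 155 CPM. In barcodes at or below the Malat1 median 2 Wnt and 6 TGF-beta and BMP genes were lower, beside 8.97% of all genes measured there. Above it 12 and 8 were lower, beside 10.5%. The genes measured differ between the sides, 9430 and 10486 in all, so the counts are not over the same genes. How many genes of each list were measured on each side is not given here, so these counts cannot be read as shares.

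Immediate early and stress genes held 0 higher and 2 lower of 25, beside 1.67% and 22% of all genes measured, with a median log2 ratio of −0.03. Over the Nova1 group alone 10 of 24 were higher, beside 2.5% of all genes measured in that comparison. The list summed to 14956 CPM in members and 10706 CPM in the Nova1 group, while the other 4 groups had 16509 to 18106 CPM. Fos was at 1672 against 1611 CPM, Jun at 1207 against 1097 CPM and Egr1 at 1466 against 1657 CPM. NF-kB targets held 0 higher and 4 lower of 18, beside the same 1.67% and 22%. Over the Rasgef1c group 11 of 18 were lower, beside 19.3% of all genes measured, at a sum of 4180 against 7789 CPM. Nfkb1 was at 493 CPM in members, 1920 CPM in the Rasgef1c group and between 580 and 852 CPM in the other 4 groups. Hypoxia and glycolysis genes, a list in which Adm is often counted, held 0 higher and 2 lower of 19. Ldha, lactate dehydrogenase, was at 165 against 128 CPM, and Slc2a1, a glucose transporter, at 18.2 against 18.9 CPM.

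The remaining lists held no gene past 1.5-fold higher, and their counts of lower genes stand beside 22% of all genes measured. Prostaglandin genes held 5 lower of 12, with Ptgs2, or cyclooxygenase 2, at 507 against 497 CPM. Genes of the interleukin 6 family held 2 lower of 9, with Stat3 at 136 against 220 CPM. Interleukin 1 and TNF genes held 3 lower of 11, and insulin-like growth factor genes 4 lower of 11, with Igfbp5 at 760 against 1410 CPM. Of 4 measured cell cycle genes 1 was lower.

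**Figure D4:**
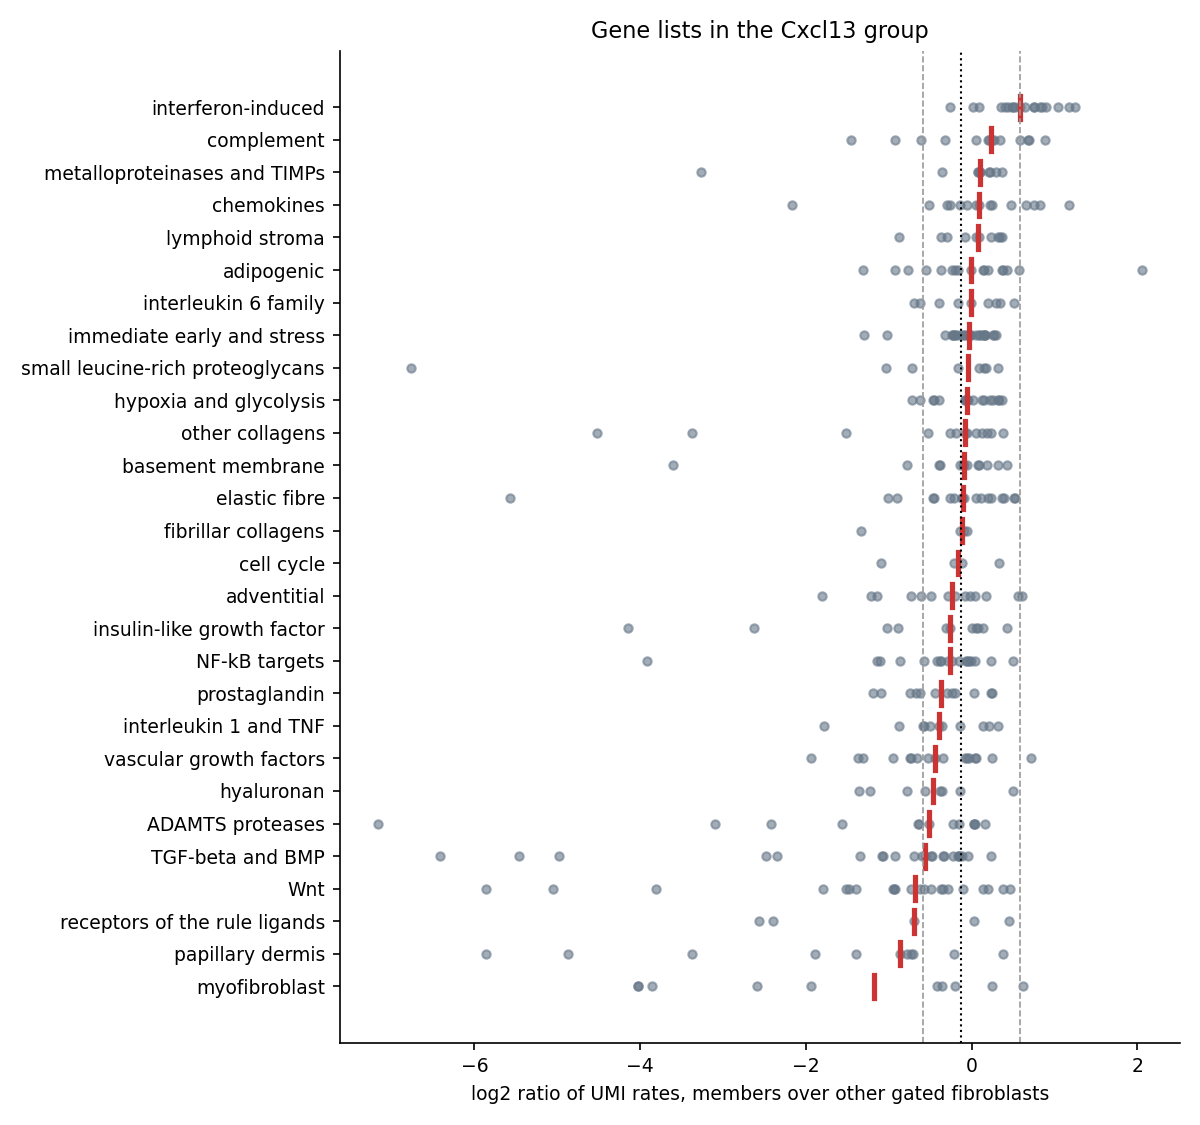
log2 ratio of UMI rates, members over other gated fibroblasts, for each measured gene (grey points) of each list of pathways and functions, with the list's median as a red bar. The dotted line is the median of all genes measured (−0.13) and the dashed lines mark 1.5-fold. The interferon-induced list has the highest median of the plotted lists (0.58).

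Among genes with a UMI in at least 5% of members, the highest ratios were partly those of interferon-induced genes outside the list. Oas3, which makes the activator of RNase L, was at 20.1 against 8.12 CPM, 2.47-fold (2.05 to 2.98), with a UMI in 16.7% of members and 6.08% of others. Ifi206 was at 19.0 against 8.25 CPM, 2.30-fold (1.90 to 2.78), and Ifitm6 at 6.14 against 2.65 CPM. Others near the top were Ecrg4, a secreted peptide precursor, at 27.0 against 11.7 CPM, and Apoc1, an apolipoprotein, at 9.90 against 4.54 CPM. Retnla and Lyz1, genes of macrophages, stood at 2.92 and 2.47-fold, but 55.3% and 51.7% of their member UMIs were in 1 barcode, and without it the ratios were 1.31 and 1.20. Mpeg1, also a macrophage gene, stood at 2.14-fold, and at 2.04-fold without its top barcode. It had a UMI in 7.32% of members and 3.13% of others. Of the genes named here, all but Retnla were under 30 CPM in members.

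Among genes with a UMI in at least 5% of the other gated fibroblasts, the 3 given here from the lowest ratios were at higher levels in the Crabp1, Cilp and Cyp2f2 groups. Robo2, an axon guidance receptor, had 15 UMIs in members or 1.38 CPM, against 252 CPM in the Crabp1 group and 176 CPM in the Cyp2f2 group. Ncam2, an adhesion molecule, had 4 UMIs in members, and 141 and 80.7 CPM in the same groups. Lepr, the leptin receptor, had 4 UMIs in members, and 63.1 CPM in the Cyp2f2 group. In the Rasgef1c and Nova1 groups these 3 genes stood at 1.90 and 0.906, 1.37 and 1.93, and 0.951 and 0.453 CPM. Their low level is thus common to members and the Rasgef1c and Nova1 groups.

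Gated fibroblasts were then clustered without the 24 rule genes and the gate genes, from 2000 other variable genes. Members were not spread evenly over the 20 clusters. They made up 73.0% (65.2 to 79.9) of cluster 10 and 69.0% (63.6 to 74.1) of cluster 3, and these clusters held 12.7% and 24.7% of all members. Interferon-induced genes led both clusters, Oas3, Ifi206 and Ifit3 in cluster 10, and Dhx58, Apol9b and Ifit3 in cluster 3. The next were cluster 4 with 39.3% (33.5 to 45.3), led by Gsta3, Igfbp4 and Pi16, and cluster 8 with 37.7% (30.7 to 45.2), led by Kit and Ngfr. Cluster 2, led by Ptx3, Il6 and Cxcl2, had 35.4% (30.2 to 40.9). Clusters 9, 12, 14 and 17 held 0 members, and for the largest of these, with 170 barcodes, the upper bound is 2.15%. Clusters are numbered by size, and no cell type name was given to them.

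**Figure D5:**
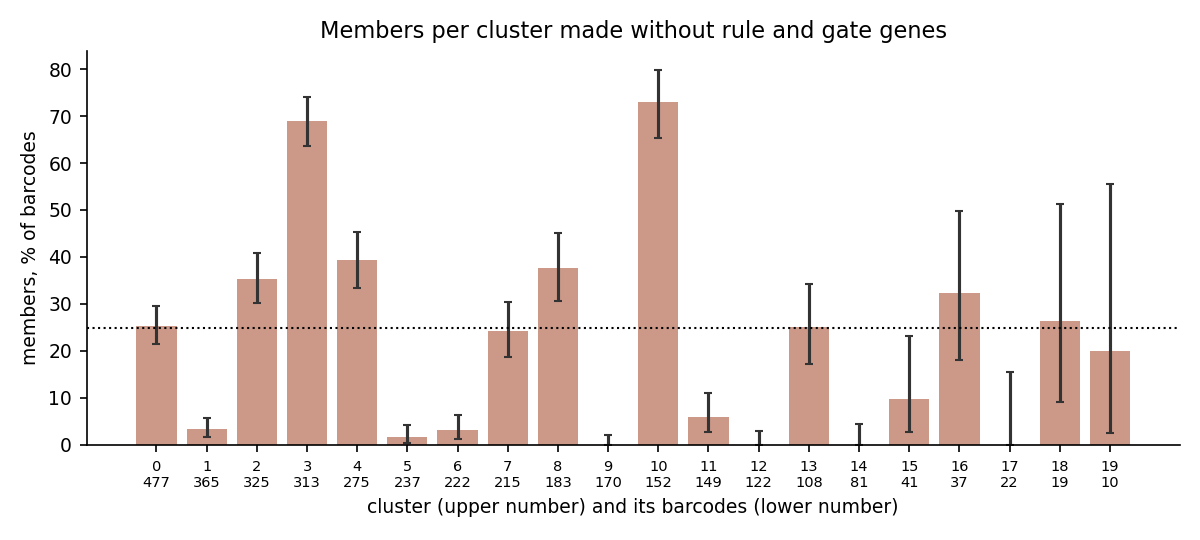
Share of members in each of 20 clusters made without the rule and gate genes, in percent of the cluster's barcodes, with 95% Clopper-Pearson intervals. The lower row of numbers on the x axis is the number of barcodes, and the dotted line is the share over all gated fibroblasts (24.8%). Clusters 10 and 3 stand above the rest at 73.0% and 69.0%.

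Of the 15 nearest neighbours of a member in the same space, 58.3% were members, against 19.2% of the neighbours of other gated fibroblasts. The share of neighbours from the same group was 33.6% in the Crabp1 group, 42.8% in the Cilp group, 51.7% in the Cyp2f2 group, 52.9% in the Rasgef1c group and 47.9% in the Nova1 group. These groups make up 8.57%, 12.4%, 12.5%, 20.6% and 18.3% of gated fibroblasts, and members 24.8%.

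Within 6 of the 7 clusters with 50 or more members the interferon list was higher in members than in the other barcodes of the cluster, with intervals that did not overlap. In cluster 10 the interferon list was at 11695 CPM (11514 to 11877) in 111 members and 10094 CPM (9796 to 10399) in 41 others. In cluster 3 it was at 9151 CPM (9033 to 9270) in 216 members and 8254 CPM (8063 to 8447) in 97 others, with Malat1 at 658 and 673 CPM. In cluster 4 it was at 5788 and 4849 CPM, and in cluster 0 at 7022 and 5863 CPM. In cluster 7 it was at 6712 CPM (6547 to 6880) and 6619 CPM (6515 to 6725), where the intervals overlap. Malat1 was lower in members in each of the 7 clusters, and cluster 3 had the closest values. It was at 665 against 1348 CPM in cluster 10, 681 against 830 CPM in cluster 4 and 5999 against 9798 CPM in cluster 0. In cluster 8 Malat1 was at 1819 against 7355 CPM. Its part in the interferon values within clusters was not tested. The chemokine list of cluster 2 was at 10306 CPM (10143 to 10471) in 115 members and 7824 CPM (7705 to 7945) in 210 others, with Cxcl1 at 3302 against 2150 CPM and Il6 at 765 against 473 CPM. In cluster 4 the chemokine list was at 1666 against 1796 CPM, and in cluster 10 at 1953 against 2084 CPM, with overlapping intervals in both. Pi16 was lower in members of clusters 2, 3 and 4, at 1984, 1584 and 2969 CPM in members against 3082, 2061 and 3901 CPM in the others. The ratio of the interferon list was smaller in each of the 7 clusters than over all gated fibroblasts. Interferon-induced genes were not left out of the clustering, which groups barcodes alike in the genes used. The ratios within clusters are therefore not independent of how the clusters were made.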

How the data were processed

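Single-cell RNA sequencing of pooled control and neutrophil-depleted mouse skin was analysed. The deposited values are UMI counts per gene and barcode, made by the authors with Cell Ranger against mm10 and left without normalization, per the submitters' processing notes; its version is not given in the sources used here. Barcodes under 200 genes (87) or over 20% mitochondrial UMIs (237) were removed. Members and gene lists were chosen with earlier results of these data known. UMIs were summed per group and given as CPM of 10904883 UMIs in members and 30182614 in others. A gene counted as past a fold when its ratio of rates reached 1.5, with at least 100 UMIs over gated fibroblasts. Log2 ratios had 0.5 UMIs added. For 0 UMIs the upper limit was set at 3. Of 582 list symbols 3 had no row.

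Named genes were the 24 rule genes, the 20 highest and 12 lowest ratios with a UMI in 5% of barcodes, per list the 3 most abundant, 2 largest and 1 smallest ratio, and the 5 closest to each gene of the set; other list genes in the text were chosen after their values were seen. Clustering used 30 components, 15 neighbours and Leiden resolution 1. Tools were Python 3.11.15, pandas 2.3.3, Scanpy 1.11.5, SciPy 1.17.1, leidenalg 0.10.2, NumPy 2.4.6, igraph 0.11.9, matplotlib 3.10.9 and scikit-learn 1.9.0. On simulated Poisson group sums for this comparison, without variation between barcodes, the method gave 3.95 for 4-fold and 0.507 for 0.5-fold over 50 genes each. In that simulation 0.473% of 11196 unchanged genes passed 1.5-fold, which is not an error rate for the measured barcodes. Doublets were called by Scrublet at an expected rate of 6% and kept, except in an alternative. Some genes that the rule names are not reported here.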

Additional observations from a re-analysis of the deposited data

Results flagged for a closer look

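Barcodes outside the fibroblast gate were not part of the comparisons, and 2 of the 4 genes of the set had a signal there. Both kinds of barcode compared here had fewer than 10 UMIs of the 4 fibroblast gate genes. In barcodes with 10 or more keratin UMIs, thinned to 2000 UMIs, Vegfd had a UMI in 4.60% (3.45 to 6.01), against 0.446% (0.204 to 0.846) in barcodes with Ptprc. Adm had a UMI in 3.16% (2.21 to 4.37) of the keratin barcodes, against 0.248% (0.0806 to 0.578) in the Ptprc barcodes. Cxcl13 and Mmp3 stood at 0.632% and 0.993% in the keratin barcodes. Whether the Vegfd and Adm UMIs come from these cells or from free RNA was not tested.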

How the results depend on the processing

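There were 20 alternatives besides the cluster resolution, 3 of them, on Malat1 and on RNA of other cells, chosen after seeing the data. The 874 members became 512 with a margin of 0.5 z and 166 above the Malat1 median; a random 0.5 of the UMIs chose 836 members, 746 of them shared. The 190 higher genes (1.67% of 11396 measured) became 25 at 2-fold (0.219%), 410 with 20 UMIs per gene (2.82% of 14548) and 120 at or below the Malat1 median (1.27% of 9430). The 2507 lower genes (22%) became 1055 at 2-fold (9.26%), 4139 with 20 UMIs per gene (28.5%) and 1603 with barcodes thinned to 3000 UMIs (19.2% of 8363). They became 846 (8.97%) at or below the Malat1 median and 1097 (10.5% of 10486) above it. The 9 interferon-induced genes past the fold became 3 at 2-fold and 14 with members chosen without Cxcl13, and lay between 8 and 12 otherwise. The 9 papillary genes became 5 at 2-fold and 3 at or below the Malat1 median, where 6 were measured. The highest share of members in a cluster was 57.6% at resolution 0.5 and 73.0% at resolution 1. Of 553 list medians recomputed, 480 stayed within the counting error of their middle gene, 72 moved further, and 1 reversed: the receptors of the secreted ligands, at 0.081 when thinned to 3000 UMIs in place of −0.69. The genes measured were chosen anew by their UMIs in each setting, 8363 in all after thinning against 11396. The medians of a list therefore need not cover the same genes. The causes were not tested.

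With 1 pooled library there is no error between animals, and condition was not assigned. Malat1 and depth move with membership, and their part was not tested. No paired analysis was possible because there is 1 pooled RNA library.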
